A study of Homo sapiens with 9 samples.

Results

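TRIM28 and 9 genes whose proteins work with it in KRAB-directed gene silencing were followed across 9 RNA sequencing libraries of H1975 cells. H1975 derives from a human non-small cell lung cancer and here carried dCas9-KRAB, a repressor made of nuclease-dead Cas9 and a KRAB domain, under a tetracycline-responsive element (TRE). The genes were TRIM28, SETDB1, ATF7IP, CBX1, CBX3, CBX5, SUV39H1, HDAC1, CHD4 and MPHOSPH8. They were chosen by name, as a silencing pathway, with earlier results of these data known. They are 10 of the 56823 genes to which reads were summed. All 10 of 10 passed the filter on low counts, among 19658 genes tested. There were 3 libraries of H1975-TRE-dCas9-KRAB cells with TRIDENT gRNA2, 3 with TRIDENT gRNA1 and 3 with a non-targeting (NT) control gRNA. All 9, the controls included, had 4 ug/ml doxycycline for 72 h to induce the repressor, and all cells were kept in G418 and puromycin. The guides are directed at TRIDENT, a long noncoding RNA that the series title ties to phosphorylated TRIM28. RNA libraries measure neither TRIM28 protein nor its phosphorylation. The labels do not say whether the cells with each guide are 1 clone or a pool, nor that the replicates came from different cultures. The p-values therefore set differences only against the variation among these 9 libraries, which may be technical.

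KRAB zinc finger proteins bind DNA and recruit TRIM28 (also called KAP1) through their KRAB domain. TRIM28 is a scaffold: it brings in the methyltransferase SETDB1 with its partner ATF7IP, the HP1 proteins encoded by CBX1, CBX3 and CBX5, and the NuRD complex, which holds the remodeler CHD4 and the deacetylase HDAC1. Methylated lysine 9 of histone H3 (H3K9) is bound by HP1, SUV39H1 extends the mark, and MPHOSPH8, a subunit of the HUSH complex, reads it and helps to spread silencing. TRIM28 also acts in DNA repair in heterochromatin, where its phosphorylation by ATM loosens chromatin. The dCas9-KRAB repressor carries such a KRAB domain, and doxycycline to induce the repressor was given to the guide and control cells alike. Which of these proteins the repressor needs was not tested. The level of the repressor itself was not measured here.

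Read totals ran from 16918432 to 26466536 per library. The RNA matched to the target, TRIDDENT (gene ENSG00000262185.2, a lincRNA on the minus strand of chromosome 16, 3931217 to 3950586, hg38), had 2.52, 2.29 and 2.52 CPM (reads scaled to library size) with gRNA2, 1.77, 2.09 and 1.87 CPM with gRNA1, and 2.62, 2.28 and 2.85 CPM in the controls. It was at 0.945-fold with gRNA2 (adjusted p = 0.81, edgeR) and at 0.745-fold with gRNA1 (adjusted p = 0.128, edgeR), so neither value passed the threshold; the match rests on a RefSeq synonym. All 8 of the epithelial markers looked for, EPCAM and keratins among them, were tested. Their summed level was 3533 to 3770 CPM with gRNA2, 3590 to 3731 CPM with gRNA1 and 3799 to 4040 CPM in the controls. Against the control, 2 epithelial markers were lower with gRNA2 and 3 with gRNA1 (adjusted p under 0.05, edgeR). The shares over all genes tested were 4.75% and 3.58%. All 8 epithelial markers had a log2 fold change below 0 with each guide. Of 12 blood and stromal markers, 8 passed the filter on low counts, among them CD68, at a mean of 64.2 CPM with gRNA2, 57.1 CPM with gRNA1 and 60.7 CPM in the controls, and HBB and COL3A1 had 0 reads in every library. Their summed level was 86.7 to 99.3 CPM with gRNA2, 81.4 to 89.2 CPM with gRNA1 and 84.8 to 89 CPM in the controls. The 2 guides share the same 3 controls, so the comparisons of each guide with the control are not independent.

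With gRNA2, 6 of the 10 genes fell against the control: TRIM28, SUV39H1, HDAC1, CHD4, CBX1 and CBX5. The declines were modest, from 0.739-fold for SUV39H1 to 0.909-fold for CBX5. No member rose. Over all genes tested, 8.44% were called with gRNA2, 4.75% as lower and 3.69% as higher. With gRNA1, 0 of the 10 genes passed the threshold, where 7.08% of all genes tested did, 3.58% as lower and 3.49% as higher. Directly compared, 4 of the 10 genes were lower with gRNA2 than with gRNA1, HDAC1, CBX5, CHD4 and CBX1, while 6.22% of all genes tested were called, 3.1% as lower. The median log2 fold change of the 10 genes was -0.14 with gRNA2 and -0.016 with gRNA1, beside 0.0095 and -0.00034 over all genes tested. The call rule throughout is a Benjamini-Hochberg adjusted p under 0.05 over all genes tested in edgeR's quasi-likelihood test. The cells are a bulk sample, so fewer cells with an RNA and less of it per cell cannot be told apart.

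**Figure D1:**
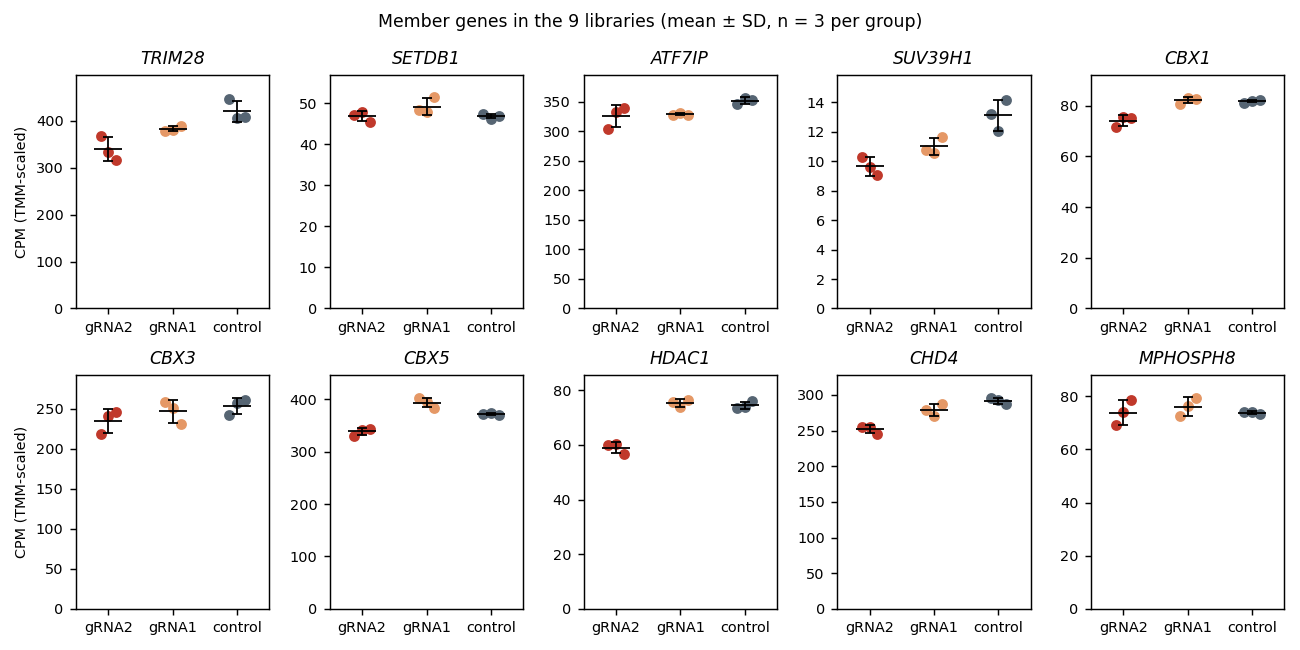
Level of each of the 10 genes in CPM (vertical axis, starting at 0) in the gRNA2, gRNA1 and control libraries. Points are libraries, and bars are the mean and SD of 3. The gRNA2 points lie below all control points for TRIM28, ATF7IP, CBX1, CBX5, SUV39H1, HDAC1 and CHD4.

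Promoter sequences are shown for the 4 genes that were called lower with gRNA2 than with both the control and gRNA1. TRIM28 and SUV39H1 also had every gRNA2 library below all the others, but were not called against gRNA1. Each runs 5′ to 3′ on the gene's own strand, from 250 bases before to 50 bases after the start in RefSeq (GRCh38.p14), and capitals mark matches on either strand to any of 6 motifs.
CBX1: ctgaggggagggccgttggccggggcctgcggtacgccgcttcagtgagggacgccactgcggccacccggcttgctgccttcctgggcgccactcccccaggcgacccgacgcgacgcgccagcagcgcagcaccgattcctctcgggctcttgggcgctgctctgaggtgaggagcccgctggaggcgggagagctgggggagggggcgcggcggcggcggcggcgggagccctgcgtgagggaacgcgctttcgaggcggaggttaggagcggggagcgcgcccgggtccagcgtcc
CBX5: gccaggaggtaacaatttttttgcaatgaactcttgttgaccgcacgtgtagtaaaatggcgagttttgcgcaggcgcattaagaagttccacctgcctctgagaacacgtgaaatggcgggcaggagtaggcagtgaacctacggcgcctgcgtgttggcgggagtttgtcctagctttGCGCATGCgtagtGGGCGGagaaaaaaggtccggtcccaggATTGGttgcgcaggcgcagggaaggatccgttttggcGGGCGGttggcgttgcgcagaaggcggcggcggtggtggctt
HDAC1: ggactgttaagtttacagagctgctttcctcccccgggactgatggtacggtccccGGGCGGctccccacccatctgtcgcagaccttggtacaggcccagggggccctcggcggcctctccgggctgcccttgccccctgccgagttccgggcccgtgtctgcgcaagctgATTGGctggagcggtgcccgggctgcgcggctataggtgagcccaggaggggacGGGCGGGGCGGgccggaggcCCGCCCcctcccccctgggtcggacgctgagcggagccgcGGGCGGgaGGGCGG
CHD4: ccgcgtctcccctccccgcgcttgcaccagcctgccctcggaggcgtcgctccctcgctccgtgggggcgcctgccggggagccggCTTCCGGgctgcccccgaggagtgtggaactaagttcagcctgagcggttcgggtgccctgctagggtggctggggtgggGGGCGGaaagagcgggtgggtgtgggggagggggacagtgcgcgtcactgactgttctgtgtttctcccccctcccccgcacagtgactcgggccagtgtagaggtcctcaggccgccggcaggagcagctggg
They lie at chr17:48101137-48101436 (minus strand), chr12:54280073-54280372 (minus), chr1:32291833-32292132 (plus) and chr12:6606402-6606701 (minus), in that order. The RefSeq starts of CHD4, CBX1 and CBX5 lie inside the genes as GENCODE 29 draws them, and the CHD4 and CBX1 windows lie wholly inside. The motifs were the GC box GGGCGG, found in 45% of 35116 RefSeq promoters of this length, CCAAT (34.6%), the E2F site GGCGGGAA (3.15%), the CHR element TTTGAA (15.2%), the NRF1 core GCGCATGC (3.05%) and the ETS site CCGGAAG (10.3%). HDAC1 had 6 GC boxes, of which neighbours overlap, and 1 CCAAT box. CBX5 had 2 GC boxes, 1 CCAAT box and 1 NRF1 core. CHD4 had 1 GC box and 1 ETS site, and CBX1 had none of the 6 motifs. No motif was in all 4 windows, and the E2F and CHR letters were in none of them. GC content was 75.7% for CBX1, 57.3% for CBX5, 73.7% for HDAC1 and 71.7% for CHD4, beside a median of 58.7% over all the promoters. A RefSeq promoter was matched for 9 of the 10 genes, TRIM28 being the exception.

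Levels of different genes can be compared only per transcript length, as TPM, a length-scaled share of the transcripts in a library, summed over the transcripts of a gene. By this sum, TRIM28 was the most abundant of the 10 in all 9 libraries, at 360.4 ± 12.4 TPM with gRNA2, 373 ± 13.4 TPM with gRNA1 and 377 ± 31.3 TPM in the controls (SD, n = 3 each). CBX3, the HP1 gamma gene, was at rank 2 in every library, at 175 TPM with gRNA2, 183 TPM with gRNA1 and 185 TPM in the controls. ATF7IP and CHD4 came next, with overlapping ranges in every group, at 66.2 and 69.6 TPM with gRNA2, 70.7 and 67.9 TPM with gRNA1, and 72.4 and 71.7 TPM in the controls. CBX5 followed at rank 5 throughout, CBX1 and HDAC1 overlapped with gRNA1 and in the controls, and SETDB1 was at rank 9 in every library. SUV39H1 was the lowest in every library, at 3.31 TPM with gRNA2, 3.66 TPM with gRNA1 and 4.37 TPM in the controls. The order of the 10 genes thus differed between groups only between ranks 3 and 8, where MPHOSPH8 stood at rank 6 with gRNA2, at 36.3 TPM, and at rank 8 with gRNA1 and in the controls, at 30.2 and 28.1 TPM. In CPM MPHOSPH8 was at 73.9 with gRNA2, 76.1 with gRNA1 and 73.9 in the controls, so its higher rank with gRNA2 came without more reads. By the transcript with most reads alone, CBX3 (CBX3-202) stood above TRIM28 (TRIM28-201) in every group. They were at 111 and 64.9 TPM with gRNA2, 117.5 and 73.5 TPM with gRNA1, and 119.8 and 89.6 TPM in the controls. TRIM28-201 held 20.5% of the gene's TPM.

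TRIM28 (ENSG00000130726.11, chromosome 19, 58544091 to 58550722, plus strand, hg38 for this and the coordinates that follow) is the scaffold of the pathway. It had 368, 334 and 317 CPM with gRNA2, 379, 381 and 389 CPM with gRNA1, and 447, 406 and 409 CPM in the controls. The 3 groups did not overlap: every gRNA2 library lay below every gRNA1 library, and these below every control. TRIM28 fell to 0.809-fold with gRNA2 (95% interval 0.750 to 0.872, adjusted p = 0.00227, edgeR), and the call held with each of the 9 libraries left out in turn. With gRNA1 it was at 0.911-fold (0.845 to 0.983, adjusted p = 0.132, edgeR), which passed the threshold only without gRNA2 replicate 1 (adjusted p = 0.0498) and with no filter on low counts (adjusted p = 0.0187). Against gRNA1, gRNA2 was at 0.888-fold (adjusted p = 0.063, edgeR), which passed without gRNA2 replicate 1 (adjusted p = 0.00637) and without control replicate 1 (adjusted p = 0.0415). It also passed with DESeq2 (0.00779), the replicate block (0.0364), no filter on low counts (0.00113) and the GC and length correction (3.99e-05), so in 6 of 17 alternative fits. The call with gRNA2 ended with an offset for the average transcript length, where the log2 fold change was -0.13 in place of -0.31 (adjusted p = 0.249). In TPM of the whole gene, the gRNA2 libraries (346 to 370.2) overlapped the controls (344 to 407).

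The H3K9 methyltransferase genes differed among themselves. SUV39H1 (ENSG00000101945.16, chromosome X, 48695554 to 48709012, plus strand), the enzyme of constitutive heterochromatin, had 10.3, 9.58 and 9.07 CPM with gRNA2, 10.8, 10.6 and 11.7 CPM with gRNA1, and 13.2, 12.1 and 14.2 CPM in the controls. Both guide groups lay below every control library, and gRNA2 below gRNA1. It fell to 0.739-fold with gRNA2 (0.651 to 0.838, adjusted p = 0.00607, edgeR), and this call held in all 17 alternative fits. With gRNA1 it was at 0.839-fold (0.740 to 0.950, adjusted p = 0.087, edgeR), and between the guides at 0.881-fold (adjusted p = 0.261, edgeR). An antisense gene, ENSG00000232828, shares 18.7% of the 31-base words of SUV39H1 and had 0.408% as many reads. SETDB1 (ENSG00000143379.12, chromosome 1, 150926263 to 150964744, plus strand), the methyltransferase that TRIM28 recruits, had 47.2, 48 and 45.5 CPM with gRNA2, 48.3, 47.9 and 51.6 CPM with gRNA1, and 47.4, 46.3 and 46.9 CPM in the controls. The gRNA2 and control libraries overlapped, and the gRNA1 libraries lay above the controls. Its fold was 1 with gRNA2 (0.937 to 1.07, adjusted p = 0.978, edgeR) and 1.05 with gRNA1 (0.982 to 1.12, adjusted p = 0.393, edgeR). SETDB1 shares 10.8% of its 31-base words with CERS2, which overlaps it on the opposite strand and had 213% as many reads, and whether the counting used strand is not given in the sources used here.

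ATF7IP (ENSG00000171681.12, chromosome 12, 14365632 to 14502935, plus strand) stabilises SETDB1 in the nucleus. It had 305, 332 and 340.3 CPM with gRNA2, 329, 331 and 328 CPM with gRNA1, and 346, 357 and 353 CPM in the controls. Both guide groups lay below all 3 controls and overlapped each other. The fold was 0.925 with gRNA2 (0.872 to 0.981, adjusted p = 0.0999, edgeR) and 0.936 with gRNA1 (0.882 to 0.992, adjusted p = 0.168, edgeR), so neither passed the threshold.

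The HP1 genes encode the readers of methylated H3K9. CBX5 (HP1 alpha; ENSG00000094916.15, chromosome 12, 54230940 to 54280133, minus strand) had 331, 342 and 343 CPM with gRNA2, 402, 394 and 384 CPM with gRNA1, and 372, 374 and 371 CPM in the controls. The groups did not overlap, and they stood in the order gRNA2, control, gRNA1 from low to high. It fell to 0.909-fold with gRNA2 (0.867 to 0.953, adjusted p = 0.0174, edgeR) and was at 1.06-fold with gRNA1 (1.01 to 1.11, adjusted p = 0.155, edgeR). Against gRNA1 it was lower with gRNA2, at 0.860-fold (adjusted p = 0.000923, edgeR), and this call held in all 17 alternative fits. The call against the control ended without control replicates 1, 2 or 3 (adjusted p = 0.054, 0.0863 and 0.065) and without gRNA2 replicate 2 (adjusted p = 0.0815). It also ended with protein_coding transcripts only (adjusted p = 0.0732) and with the transcript length offset (adjusted p = 0.21). CBX1 (HP1 beta; ENSG00000108468.14, chromosome 17, 48070052 to 48101521, minus strand) had 71.6, 75.7 and 75 CPM with gRNA2, 80.9, 83 and 82.8 CPM with gRNA1, and 81.3, 82.1 and 82.2 CPM in the controls. Every gRNA2 library lay below all 6 others, while gRNA1 and the controls overlapped. It fell to 0.905-fold with gRNA2 (0.855 to 0.958, adjusted p = 0.0332, edgeR), and was at 0.901-fold against gRNA1 (adjusted p = 0.0322, edgeR).

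Of the 6 genes called lower with gRNA2, CBX1 passed in the fewest alternative fits, 7 of 17. All 6 CBX1 transcripts are annotated protein_coding, so the fit of protein_coding transcripts only used the same CBX1 reads. The call against the control ended without control replicates 1, 2 or 3 (adjusted p = 0.0787, 0.124 and 0.116), without gRNA1 replicate 2 (0.0603) and without gRNA2 replicates 1, 2 or 3 (0.0985, 0.0903 and 0.0597). It also ended with protein_coding transcripts only (adjusted p = 0.129), the transcript length offset (0.271) and a fit of only the 2 groups compared (0.0666). That against gRNA1 ended without control replicates 2 or 3 (adjusted p = 0.0647 and 0.0567), without gRNA1 replicates 1, 2 or 3 (0.0761, 0.124 and 0.0792) and without gRNA2 replicates 1, 2 or 3 (0.0983, 0.0848 and 0.051), and with no filter on low counts (0.0518), protein_coding transcripts only (0.0531), the length offset (0.37) and a fit of only the 2 groups compared (0.0699). CBX3 (HP1 gamma; ENSG00000122565.18, chromosome 7, 26201162 to 26213356, plus strand), which is also found in transcribed genes, had 218, 240.3 and 246 CPM with gRNA2, 258, 251 and 231 CPM with gRNA1, and 242, 257 and 261 CPM in the controls. All 3 groups overlapped. Its fold was 0.925 with gRNA2 (0.857 to 0.999, adjusted p = 0.21, edgeR) and 0.973 with gRNA1 (adjusted p = 0.718, edgeR). CBX3 overlaps the highly expressed HNRNPA2B1 on the opposite strand and shares 7.19% of its 31-base words with it.

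Of the 10 genes HDAC1 had the largest log2 difference between the guides, and CHD4 moved the same way; both belong to NuRD. HDAC1 (ENSG00000116478.11, chromosome 1, 32292086 to 32333635, plus strand), the deacetylase, had 60, 60.3 and 56.6 CPM with gRNA2, 75.9, 73.7 and 76.6 CPM with gRNA1, and 73.6, 73.7 and 76 CPM in the controls. The gRNA2 libraries lay well below all 6 others, and gRNA1 and the controls overlapped. It fell to 0.793-fold with gRNA2 (0.746 to 0.843, adjusted p = 0.000249, edgeR), held with every library left out, and ended with the transcript length offset (adjusted p = 0.0606). With gRNA1 it was at 1.01-fold (0.953 to 1.07, adjusted p = 0.847, edgeR), and gRNA2 was at 0.784-fold of gRNA1 (adjusted p = 0.000174, edgeR), a call that held in all 17 alternative fits. CHD4 (ENSG00000111642.15, chromosome 12, 6570082 to 6614524, minus strand), the remodeling ATPase, had 254, 255 and 245 CPM with gRNA2, 278, 270.0 and 287 CPM with gRNA1, and 296, 292 and 288 CPM in the controls. The groups did not overlap, gRNA2 being lowest and the controls highest. It fell to 0.862-fold with gRNA2 (0.819 to 0.908, adjusted p = 0.00203, edgeR) and was at 0.953-fold with gRNA1 (adjusted p = 0.268, edgeR).

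CHD4 was lower with gRNA2 than with gRNA1, at 0.905-fold (adjusted p = 0.0234, edgeR). That call ended without gRNA1 replicates 1 or 3 (adjusted p = 0.0871 and 0.0735) and without gRNA2 replicates 2 or 3 (0.0727 and 0.0783), and both CHD4 calls ended with the transcript length offset (adjusted p = 0.526 against the control, where the log2 fold change was -0.11 in place of -0.21, and 0.978 against gRNA1, where it was -0.0080 in place of -0.14). CHD4 shares 44.2% of its 31-base words with ENSG00000285238, an overlapping gene on the same strand that had 0.758% as many reads, so its estimated counts are uncertain to the extent that reads were split between them. MPHOSPH8 (ENSG00000196199.13, chromosome 13, 19633681 to 19673459, plus strand), the HUSH reader, had 69.2, 73.9 and 78.6 CPM with gRNA2, 72.6, 76.3 and 79.5 CPM with gRNA1, and 74.2, 74.1 and 73.4 CPM in the controls. All groups overlapped. Its fold was 0.998 with gRNA2 (0.927 to 1.08, adjusted p = 0.987, edgeR) and 1.03 with gRNA1 (adjusted p = 0.675, edgeR). With the transcript length offset MPHOSPH8 instead passed as higher with gRNA2, by 0.30 on the log2 scale (adjusted p = 0.042).

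**Figure D2:**
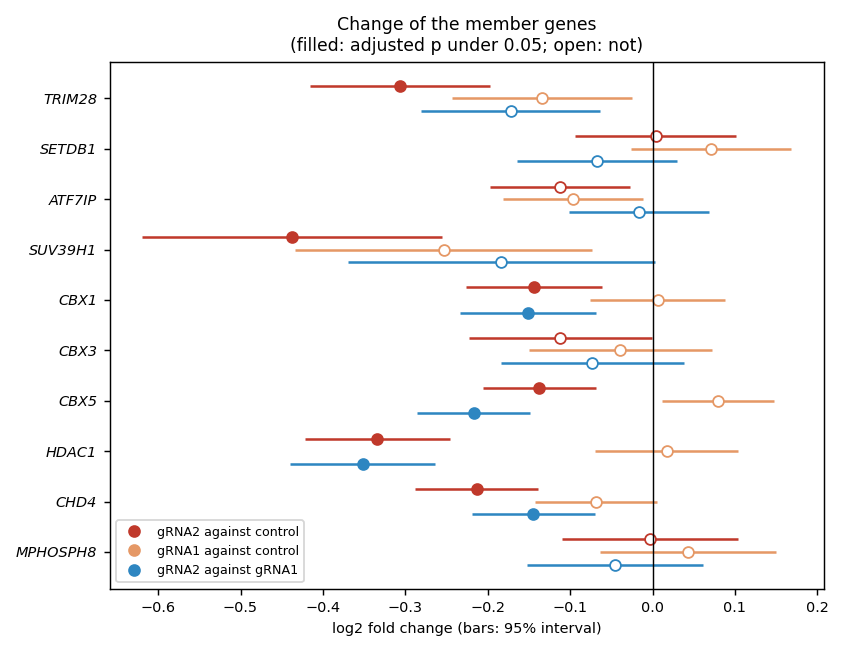
Log2 fold change of each of the 10 genes (horizontal axis) with gRNA2 against the control, gRNA1 against the control and gRNA2 against gRNA1, with 95% intervals. Filled points passed an adjusted p of 0.05: 6 with gRNA2, 0 with gRNA1 and 4 between the guides, all of them to the left of 0.

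In counts, 7 of the 10 genes had all 3 gRNA2 libraries below all 3 controls, where 13.7% of all genes tested did, and the other 3 overlapped. None lay wholly above, where 13.6% of all genes tested did. With gRNA1, 4 genes lay wholly below the controls (TRIM28, ATF7IP, SUV39H1 and CHD4) and 2 wholly above (SETDB1 and CBX5), beside 14.6% and 13.5% of all genes tested. Between the guides, 6 genes lay wholly lower with gRNA2, beside 12% of all genes tested, and 4 overlapped. At an unadjusted p under 0.05, 8 of the 10 genes passed with gRNA2, 4 with gRNA1 and 5 between the guides, beside 23.3%, 22.0% and 19.6% of all genes tested. DESeq2 called 6 of the 10 with gRNA2, 0 with gRNA1 and 5 between the guides, the further one being TRIM28 (adjusted p = 0.00779). Over all 19658 genes tested, DESeq2 called 1205 with gRNA1 against the control. Its counts over all genes in the other comparisons are not given here, so these member counts stand without their background.

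**Figure D3:**
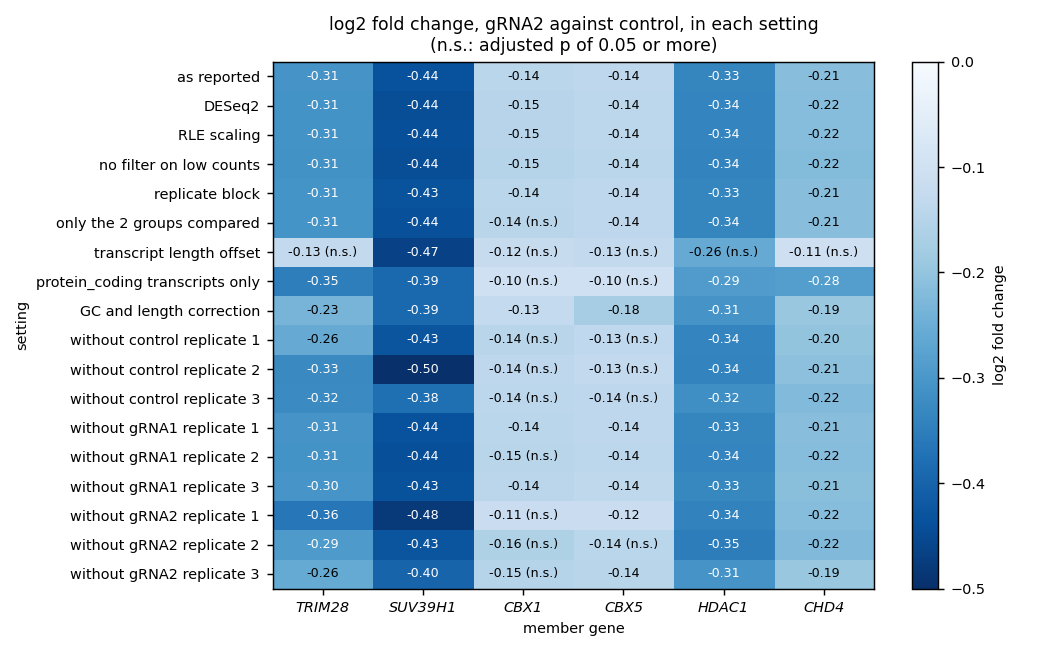
Log2 fold change with gRNA2 against the control for the 6 genes called lower (columns) in each of 18 fits (rows, the first as reported). Darker blue is a larger decline, and n.s. marks an adjusted p of 0.05 or more: SUV39H1 passed in every fit, while TRIM28, HDAC1 and CHD4 missed only with the transcript length offset.

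The reads of a gene are spread over several annotated transcripts, whose levels the authors' Salmon run estimated separately. These are descriptions with no test, and Salmon's own uncertainty for each transcript was not used here. For each member the transcript with most reads was taken, and it was annotated protein_coding for all 10. It lay below all controls in all gRNA2 libraries for 5 genes (TRIM28, CBX3, CBX5, SUV39H1 and HDAC1) and overlapped for 5. With gRNA1 it did so for TRIM28 and SUV39H1 and overlapped for 8, and 4 of the 10 lay lower with gRNA2 than with gRNA1. Over the main transcripts of all genes tested the shares were 7.2% with gRNA2, 8.1% with gRNA1 and 6.66% between the guides. TRIM28-201, which is 2960 bases long and took 52.6% of the reads of the gene, had 65.3, 65.5 and 63.9 TPM with gRNA2, 67.4, 84.1 and 68.9 TPM with gRNA1, and 93, 87 and 88.9 TPM in the controls. The ratio of its means to the control was 0.724 with gRNA2 and 0.82 with gRNA1, and the groups did not overlap. The other TRIM28 transcripts together had 295.5 ± 13.1 TPM with gRNA2, 299.9 ± 12 TPM with gRNA1 and 287 ± 29.5 TPM in the controls (SD, n = 3 each), and their libraries overlapped. Among them was the transcript with the largest share of the gene's TPM (27.59%), annotated protein_coding and 861 bases long. It was at 99.07 ± 8.06 TPM with gRNA2, 110.5 ± 6.26 TPM with gRNA1 and 96.85 ± 12.8 TPM in the controls. Its libraries overlapped between all groups, so this coding transcript did not follow the decline of TRIM28-201. TRIM28-213, a retained intron transcript, was at 48.2 ± 2.98 TPM with gRNA2, 44.2 ± 1.17 TPM with gRNA1 and 35.9 ± 7.12 TPM in the controls. Another retained intron transcript, TRIM28-214, was at 35.8 ± 10.8 TPM with gRNA2, 26.6 ± 2.63 TPM with gRNA1 and 38.5 ± 11.6 TPM in the controls, and its gRNA1 libraries lay below all controls. The share of TRIM28 reads on coding transcripts was 77.4 ± 1.92% with gRNA2, 79.4 ± 1.02% with gRNA1 and 82 ± 1.42% in the controls.

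HDAC1-201, with 86.5% of the reads of its gene, had 18.6, 20.1 and 20 TPM with gRNA2, 25.6, 25.4 and 23.8 TPM with gRNA1, and 22.6, 24.3 and 23.5 TPM in the controls. The gRNA2 libraries lay below all others, at a ratio of 0.832 to the control and 0.785 to gRNA1. SUV39H1-202, with 98.5% of the reads, had 3.14, 3.15 and 2.97 TPM with gRNA2, 3.48, 3.45 and 3.41 TPM with gRNA1, and 3.84, 3.93 and 4.27 TPM in the controls. Its 3 groups did not overlap and stood in the same order as the gene's CPM. CBX5-201, with 91.5% of the reads, was at 25.5 ± 1.03 TPM with gRNA2, 28.8 ± 1.9 TPM with gRNA1 and 27.3 ± 0.657 TPM in the controls.

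Some transcripts other than the main one moved apart from their gene, and those named here were chosen after their values were seen. CBX5-203, a retained intron transcript of 745 bases, had 1.76, 2.31 and 3.55 TPM with gRNA2, 4.7, 6.69 and 8.43 TPM with gRNA1, and 1.75 TPM in 1 control, and was listed at 0 in the other controls. All gRNA1 libraries lay above all others, and both guide groups above the controls, on a mean of 39.3 estimated reads per library with gRNA2, 103 with gRNA1 and 10.5 in the controls. MPHOSPH8-201, which codes for the protein, overlapped in all groups, at 10.2 ± 0.734 TPM with gRNA2, 10.7 ± 0.466 TPM with gRNA1 and 10.5 ± 0.191 TPM in the controls. The other MPHOSPH8 transcripts together had 26.1 ± 0.519 TPM with gRNA2, 19.5 ± 1.2 TPM with gRNA1 and 17.6 ± 1.62 TPM in the controls. Their gRNA2 libraries lay above all others, which is the side on which MPHOSPH8 passed with the length offset.

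**Figure D4:**
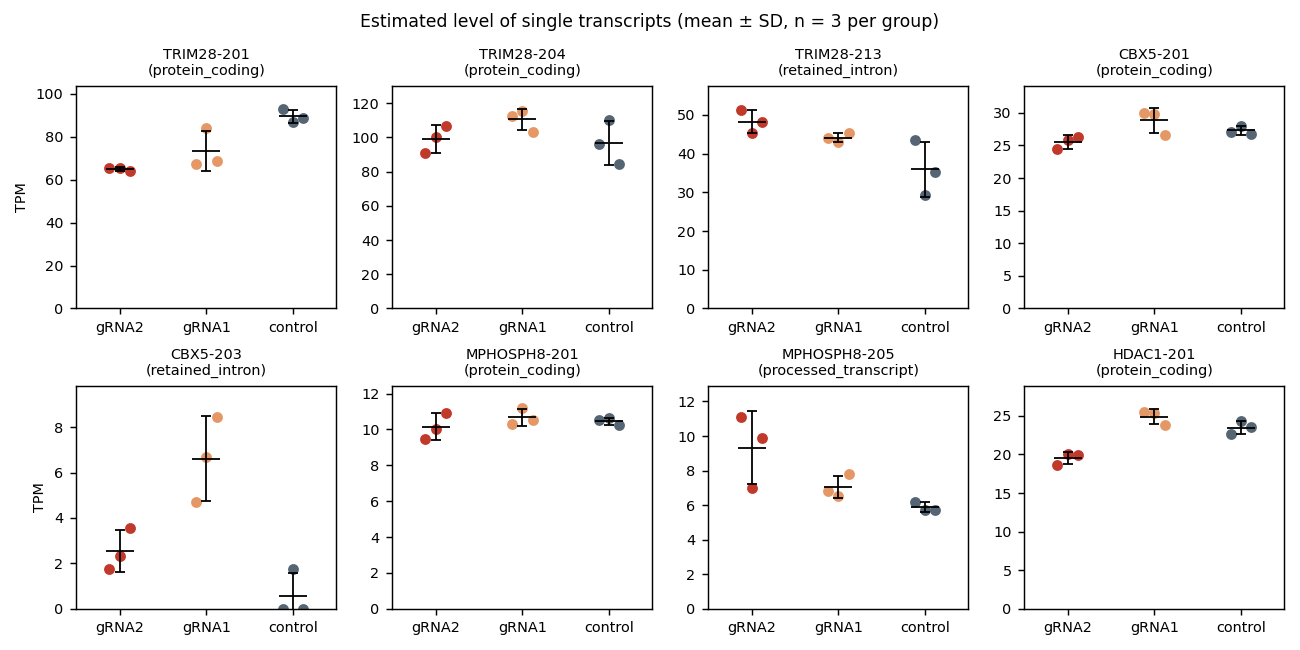
Estimated level in TPM (vertical axes, starting at 0) of 8 transcripts of TRIM28, CBX5, MPHOSPH8 and HDAC1 in the gRNA2, gRNA1 and control libraries. Points are libraries and bars the mean and SD of 3, cut at 0 for CBX5-203 in the controls. TRIM28-201 and HDAC1-201 are lowest with gRNA2, and CBX5-203 is highest with gRNA1.

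The wider pathway was followed with lists of named genes, read against the background shares given above. Of 15 NuRD genes tested, 0 rose and 6 fell with gRNA2, with a list median of -0.14 on the log2 scale. Besides HDAC1 and CHD4 these were MTA2 (0.838-fold, adjusted p = 0.0046), a scaffold subunit, the histone chaperones RBBP7 (0.883-fold, 0.0113) and RBBP4 (0.888-fold, 0.0173), and MBD3 (0.802-fold, 0.0493), a structural subunit, all by edgeR. MBD3 overlaps ENSG00000267059 on the same strand, which had 28.9% as many reads. MTA2 had 72.4, 68.9 and 68 CPM with gRNA2, 71.6, 71.9 and 76.4 CPM with gRNA1, and 88.2, 81.3 and 80.7 CPM in the controls. Both guide groups lay below the controls, and MTA2 was also the 1 NuRD gene that fell with gRNA1 (0.88-fold, adjusted p = 0.0299, edgeR). HDAC2, the paralog of HDAC1, was at 0.929-fold with gRNA2 (adjusted p = 0.161, edgeR) and at 1.02-fold with gRNA1 (adjusted p = 0.716, edgeR).

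Of 15 tested genes of HP1 and H3K9 methylation, 4 fell with gRNA2, and all 4 were members of the group of 10 (TRIM28, SUV39H1, CBX1 and CBX5). With gRNA1, 0 of the 15 passed in edgeR or DESeq2, and 5 had an unadjusted p under 0.05. EHMT2, a further H3K9 methyltransferase, was listed at 0 in every library and was not tested. Reads of transcripts without a match to the annotation were not used, and whether EHMT2 reads were among them was not tested. The value of 0 therefore does not show that EHMT2 is silent in these cells. Of 5 HUSH genes, 0 passed with gRNA2 in edgeR or DESeq2, and 0 had an unadjusted p under 0.05. PPHLN1, the HUSH subunit periphilin, rose with gRNA1 (1.11-fold, adjusted p = 0.0279, edgeR). It had 61.7, 63.8 and 64.2 CPM with gRNA2, 72.2, 70.3 and 73.3 CPM with gRNA1, and 63.8, 65 and 64.9 CPM in the controls, and was lower with gRNA2 than with gRNA1 (0.879-fold, adjusted p = 0.011, edgeR).

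SUMO joins TRIM28 to SETDB1 and NuRD, since TRIM28 modifies itself with it. Of 17 genes of the SUMO pathway, 3 fell with gRNA2, among them the modifier SUMO3 (0.886-fold, adjusted p = 0.0214) and the protease SENP3 (0.886-fold, 0.0392), both by edgeR. SENP3 was also the 1 gene of the list that fell with gRNA1 (0.856-fold, adjusted p = 0.0121, edgeR). SENP3 shares 39.4% of its 31-base words with other genes, nearly all with the readthrough gene SENP3-EIF4A1. Of 9 tested genes of DNA methylation, 2 fell with gRNA2, UHRF1 (0.785-fold, adjusted p = 0.000748) and DNMT1 (0.872-fold, 0.00906), both of which copy methylation after replication. UHRF1 shares 27.3% of its 31-base words with other genes, RBBP4 29.6% and PPP1CA 21.6%, so reads of these genes could be split. UHRF1, DNMT1 and the remodeler HELLS were lower with gRNA2 than with gRNA1 (0.822-, 0.876- and 0.883-fold, adjusted p = 0.00331, 0.0126 and 0.0163, edgeR). TET3, a demethylating oxygenase, rose with gRNA1 in edgeR (1.14-fold, adjusted p = 0.0465), while DESeq2 called 0 genes of the list higher and the call ended with the replicate block (adjusted p = 0.0667).

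Of 10 H3K9 demethylase genes, KDM7A rose with gRNA2 (1.14-fold, adjusted p = 0.0106), and KDM3A (0.889-fold, 0.0177) and KDM1A (0.902-fold, 0.0265) fell, all by edgeR. KDM7A was also higher with gRNA2 than with gRNA1 (1.13-fold, adjusted p = 0.0175, edgeR). With gRNA1, 0 of the 10 passed in edgeR or DESeq2, and 0 had an unadjusted p under 0.05. Of 7 tested genes of the TRIM28 family and its partners, 0 passed with gRNA2 and 0 with gRNA1 in edgeR or DESeq2, with 2 and 1 at an unadjusted p under 0.05. TRIM24, a relative of TRIM28, was lower with gRNA2 than with gRNA1 (0.874-fold, adjusted p = 0.0138, edgeR). Of 13 kinases and phosphatases that act on TRIM28, 3 fell with gRNA2: PRKCD (0.866-fold, adjusted p = 0.00879), PRKDC (0.909-fold, 0.0221) and PPP1CA (0.867-fold, 0.0235), all by edgeR. ATM, the kinase that phosphorylates TRIM28 after DNA breaks, was at 1.01-fold with gRNA2 (adjusted p = 0.83, edgeR) and 0.98-fold with gRNA1 (adjusted p = 0.722, edgeR). With gRNA1, 0 of the 13 passed in edgeR or DESeq2, and 2 had an unadjusted p under 0.05. ZNF10, a KRAB zinc finger gene whose KRAB domain is used in many such repressors, had 7.75, 7.52 and 6.67 CPM with gRNA2, 7.44, 8.5 and 7.39 CPM with gRNA1, and 6.63, 6.88 and 7.45 CPM in the controls. The groups overlapped (1.05-fold with gRNA2, adjusted p = 0.718, edgeR), and reads of a repressor built on that domain would not be told apart from those of the gene.

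**Figure D5:**
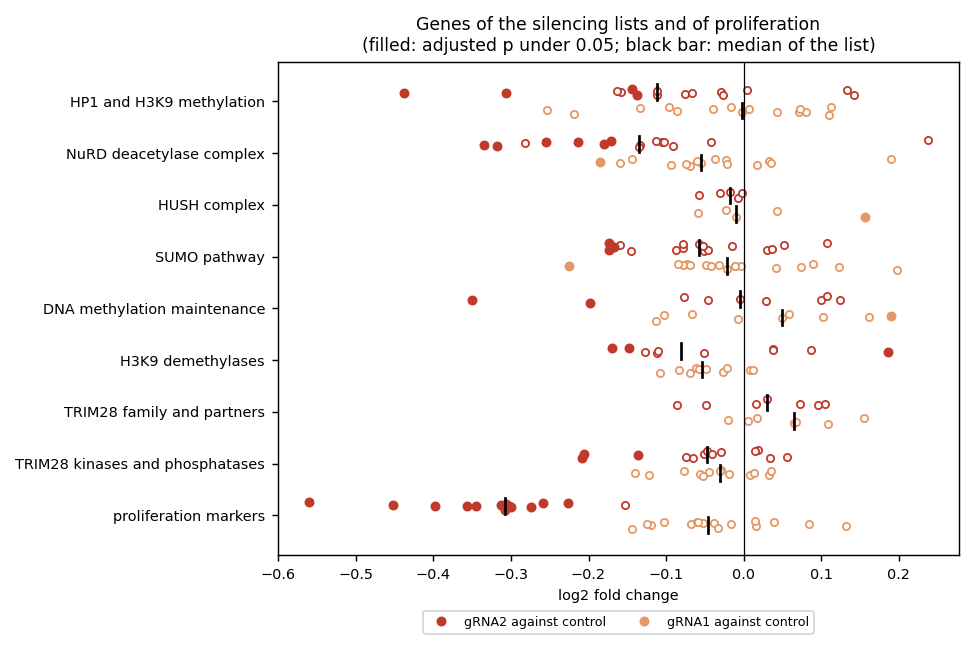
Log2 fold change against the control (horizontal axis) of every tested gene of 8 silencing lists and of the proliferation markers, with gRNA2 above gRNA1 in each row. Filled points passed an adjusted p of 0.05 and black bars are list medians. The proliferation markers with gRNA2 lie lowest, with 15 of 16 called.

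Proliferation markers moved with the gRNA2 result. Of 16 tested, 15 fell with gRNA2 and 13 were lower with gRNA2 than with gRNA1, with a list median of -0.31 on the log2 scale against the control. With gRNA1, 0 of the 16 passed in edgeR or DESeq2, and 5 had an unadjusted p under 0.05. Their summed level was 1358 to 1405 CPM with gRNA2, 1703 to 1729 CPM with gRNA1 and 1757 to 1772 CPM in the controls, and none of the 16 was at 0. The mitotic cyclin CCNB1 fell to 0.678-fold with gRNA2 (adjusted p = 4.89e-06, edgeR). SUV39H1, UHRF1, DNMT1 and the NuRD genes stand beside these values, and the part that proliferation has in their change was not tested.

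By Pearson's r of log2 CPM over the 9 libraries, the genes most like TRIM28 among 10423 well expressed, named genes were SLCO4A1 (r = 0.986), GPI (0.985), GAPDH (0.984), PPP2R1A (0.984) and UBA1 (0.983). Of these, GPI and GAPDH encode glycolytic enzymes, SLCO4A1 a transporter, PPP2R1A a phosphatase scaffold and UBA1 the ubiquitin-activating enzyme. Within the silencing group the nearest to TRIM28 were CHD4 (r = 0.92), SUV39H1 (0.91) and HDAC1 (0.805), followed by CBX1 (0.652), CBX5 (0.53) and ATF7IP (0.352). CBX3 (0.207), SETDB1 (0.192) and MPHOSPH8 (-0.19) were the least alike. The 9 libraries fall into 3 groups of 3 and share cell line and preparation, so these coefficients largely restate the group means and describe the libraries only.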

How the data were processed

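Total RNA libraries were depleted of ribosomal RNA, per the labels' protocols. The authors quantified transcripts with Salmon 1.4.0 and hg38, per the submitters' processing notes; the annotation and the strand setting are not given in the sources used here. Each deposited table holds an estimated count of reads per transcript and TPM, both as made by the authors' run, per the file headers.

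Of 211939 transcripts listed, 95.7% matched GENCODE 29 by identifier. Summing these gave 56823 genes, whose estimated counts were rounded; transcripts without a match, holding 1.26% to 1.33% of reads, were not used. A current symbol was available for 99.1% of genes. The target was matched through a RefSeq synonym. In edgeR 4.0.16 (R 4.3.3), filterByExpr kept 19658 genes, TMM scaled the libraries (factors 0.985 to 1.01), and a single quasi-likelihood fit of all 9 libraries gave each comparison, two-sided. Intervals are the 95% intervals of that fit. The biological coefficient of variation was 0.051. CPM use TMM-scaled library sizes, and TPM entered no test. The closest libraries, gRNA1 replicates 1 and 2, differed by more than sampling noise (chi-square per degree of freedom 1.75). Each library was entered as 1 replicate, though this difference does not show that they came from different cultures. In the comparison of gRNA2 with the control, same-numbered libraries had positive r values for their deviations from the group means (0.383, 0.137 and 0.282). Of the differently numbered ones, gRNA2 replicate 3 and control replicate 2 had r = 0.1875, and the rest were negative, the lowest -0.382. Whether the replicate numbers mark a pairing is not known. The reported fit has no replicate block, so its p-values use no pairing. A fit with the replicate block is given among the alternatives.

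The 10 genes and all lists were chosen with earlier results of these data known. Named were the 10 genes, the target, ZNF10, up to 4 genes of each list and comparison with the lowest adjusted p past the threshold (some are not reported here) and the 5 genes most like TRIM28, by Pearson's r among genes with a mean log2 CPM of at least 3 and no clone name. HDAC2, EHMT2, ATM and the single transcripts were named after their values were seen. Words of 31 bases shared with other genes were counted in the GENCODE transcripts. The test was checked on simulated data with known changes. Alternatives were DESeq2 1.42.0, RLE scaling, no low-count filter, a replicate block, fits of 2 groups, an offset for average transcript length, protein_coding transcripts only, each library left out, and a GC and length correction chosen after seeing the data. Sums and figures used pandas 2.3.3 and numpy 2.4.6 in Python 3.11.15, with plots by matplotlib 3.10.9.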

Additional observations from a re-analysis of the deposited data

Results flagged for a closer look

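For 4 of the 10 genes the change with gRNA2 differed from the change with gRNA1 by a test of the difference itself, the direct comparison of gRNA2 with gRNA1 (edgeR, adjusted over all genes tested). HDAC1 was lower with gRNA2 by a log2 difference of -0.35 (adjusted p = 0.000174), CBX5 by -0.22 (0.000923), CBX1 by -0.15 (0.0322) and CHD4 by -0.14 (0.0234). All 3 gRNA2 libraries lay below all 3 gRNA1 libraries for each of these genes, which restates the counts that chose them and is no further support. Over all genes tested, 3.1% were called lower with gRNA2 than with gRNA1 and 12% lay wholly lower. The proliferation markers also differed between the guides, with 13 of 16 lower with gRNA2, and their part in these differences was not tested.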

How the results depend on the processing

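Over the alternatives to the 30 member fold changes, 447 values kept direction and call, 36 lost the call, 13 gained one and 14 changed sign. All sign changes but 1 were of folds with an adjusted p above 0.05. The cause of the changes below was not tested, except that leaving out a library, or counting fewer transcripts, also lowers the number of reads or libraries tested.

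Members called with gRNA2 against the control numbered 6 as reported, 2 with the transcript length offset (SUV39H1 lower, MPHOSPH8 higher), 4 with protein_coding transcripts only, 5 in a fit of only the 2 groups compared, 8 with the GC and length correction (ATF7IP and CBX3 gained, adjusted p = 0.00136 and 0.00285) and 4 to 6 with 1 library left out. With gRNA1 there were 0 as reported and 1 each with no filter on low counts, the length offset (CBX5 higher) and the GC and length correction, and 0 to 1 with 1 library left out. Between the guides there were 4, then 2 with the length offset, 3 with protein_coding transcripts only, 3 in a fit of only the 2 groups compared, 6 with the GC and length correction and 2 to 5 with 1 library left out. Genes called over the whole table for gRNA1 against the control were 1391 as reported, 538 with the length offset, 629 with protein_coding transcripts only, 2657 with the GC and length correction and 654 to 1701 with 1 library left out. For gRNA2 against the control they were 1659, then 434, 858, 3112 and 671 to 1817, and between the guides 1222, then 446, 779, 2656 and 575 to 1215, in the same order of settings.

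Signs changed in log2 folds close to 0. ATF7IP between the guides was at 0.0095 with protein_coding transcripts only and 0.032 without gRNA2 replicate 1, in a range from -0.048 with 1 library left out. CBX1 with gRNA1 was at -0.013 with the length offset, and CBX3 with gRNA1 ran from -0.077 to 0.0076 with 1 library left out, the highest without gRNA1 replicate 3. MPHOSPH8 with gRNA2 was at 0.0015 with protein_coding transcripts only, 0.30 with the length offset (adjusted p = 0.042), and 0.0044, 0.0038 and 0.048 without control replicates 1 and 2 and gRNA2 replicate 1, in a range of -0.044 to 0.048 with 1 library left out. Between the guides MPHOSPH8 was at 0.22 with the length offset and -0.089 to 0.0022 with 1 library left out, the highest without gRNA2 replicate 1. SETDB1 with gRNA2 was at -0.0018 with no filter, and -0.0020 and -0.014 without control replicate 2 and gRNA2 replicate 2, in a range up to 0.026 with 1 library left out.

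With the replicate block the genes called were 1582 for gRNA2 against the control, 1264 for gRNA1 against the control and 1144 between the guides. The block changed no member's call against the control with either guide, nor any call in the lists for gRNA2 against the control. In the lists for gRNA1 against the control, TET3 lost its call and PIAS3 gained one (adjusted p = 0.0491). Between the guides, where same-numbered libraries did not deviate together (r = -0.19, 0.132 and -0.16), TRIM28 passed as the fifth member (adjusted p = 0.0364). For gRNA1 against the control the same-numbered r values were -0.13, 0.484 and 0.036. Depth limits SUV39H1 most, at about 10 CPM, and no protein was measured.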
